A study of Oryctolagus cuniculus with 4 samples.

Results

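GJA1, the gene of the gap junction protein connexin 43, was followed across 4 microarrays of rabbit ligamentum flavum. Its members are the probes that the array assigns to the RefSeq transcript of rabbit GJA1, which were 2 of 43603 probes, for 1 of 1489 genes that could be named on this array. GJA1 was chosen by its signal at the stressed level, which was much higher than in the control of that level, so its differences between arrays are given as a description, with no test.

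Ligamentum flavum is the elastic ligament that joins the arches of neighbouring vertebrae. All 4 samples came from male rabbits aged 34 weeks and are labelled as taken 16 weeks after surgery. In the model, surgery at 18 weeks of age removed muscle over L3/4 and fused the levels on either side of it, L2/3 and L4/5, posterolaterally with instrumentation, which concentrates mechanical load on the unfused L3/4. The 4 groups were L3/4 in the operated spine, called the intervertebral stress concentration (ISC) level, with its own control (the L3/4 control), and the pair of fused levels, L2/3 with L4/5, with theirs (the L2/3 and L4/5 control). A group has 1 single-colour Agilent array, and this number of arrays limits the precision. The surgery is recorded for every sample, and whether the control levels belonged to operated animals is not given in the sources used here. Nor is it given whether RNA of several rabbits, or of both fused levels, was pooled. Stress at the ISC level and the resection of muscle over it cannot be told apart, and neither can the loss of movement at the fused levels and the fusion surgery.

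Connexins assemble into ring-shaped hemichannels, and hemichannels of neighbouring cells dock to form gap junctions, which let ions, calcium signals and small metabolites pass from cell to cell. Connexin 43 is the most widespread member of the family and is made by fibroblasts of tendon and ligament, osteoblasts and osteocytes, smooth muscle, heart muscle and endothelium. In bone and tendon cells it is known for its part in the response to mechanical load.

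Both GJA1 probes were well above background on all 4 arrays, and none of their 8 spots was saturated or marked as an outlier. The probe with the higher signal (A_04_P010797) read a processed signal of 581 ± 58.2 at the ISC level, 69.4 ± 7.05 in the L3/4 control, 193 ± 19.4 at the fused levels and 262 ± 26.2 in the L2/3 and L4/5 control. The other probe (A_04_P010796) read 373 ± 37.3 at the ISC level, 18.3 ± 2.22 in the L3/4 control, 117 ± 11.8 at the fused levels and 175 ± 17.6 in the L2/3 and L4/5 control. The errors are the scanner software's estimate for 1 spot, n = 1 spot per array, and say nothing of the spread between animals. The ISC level was the highest and the L3/4 control the lowest of the 4 arrays for both probes.

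Arrays were then made comparable by subtracting each array's 75th percentile from the log2 signal, which gives the level used from here on. By the brighter probe the GJA1 level was 2.63 at the ISC level and 0.38 in the L3/4 control, and it was 1.18 at the fused levels and 1.85 in the L2/3 and L4/5 control. By the dimmer probe it was 1.99 at the ISC level and -1.55 in the L3/4 control, and 0.46 at the fused levels and 1.27 in the L2/3 and L4/5 control. From high to low, both probes thus had the order ISC level, L2/3 and L4/5 control, fused levels, L3/4 control. The steps between neighbours in this order were 0.78, 0.67 and 0.80 on the log2 scale for the brighter probe, all under 2-fold. They were 0.72, 0.82 and 2.0 for the dimmer probe, so a neighbouring step passed 2-fold by that probe alone, between the fused levels and the L3/4 control. Replicate spots of a probe differed by less, with a median SD on the log2 scale between 0.11 and 0.13 on the 4 arrays, which is a spread within arrays. No spread between rabbits is known, so none of these steps can be set against it. The same order was found in 595 of 12742 features well above background on all 4 arrays, which is 4.67%. Features are named genes, with accessions or probe names standing in for the unnamed.

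**Figure D1:**
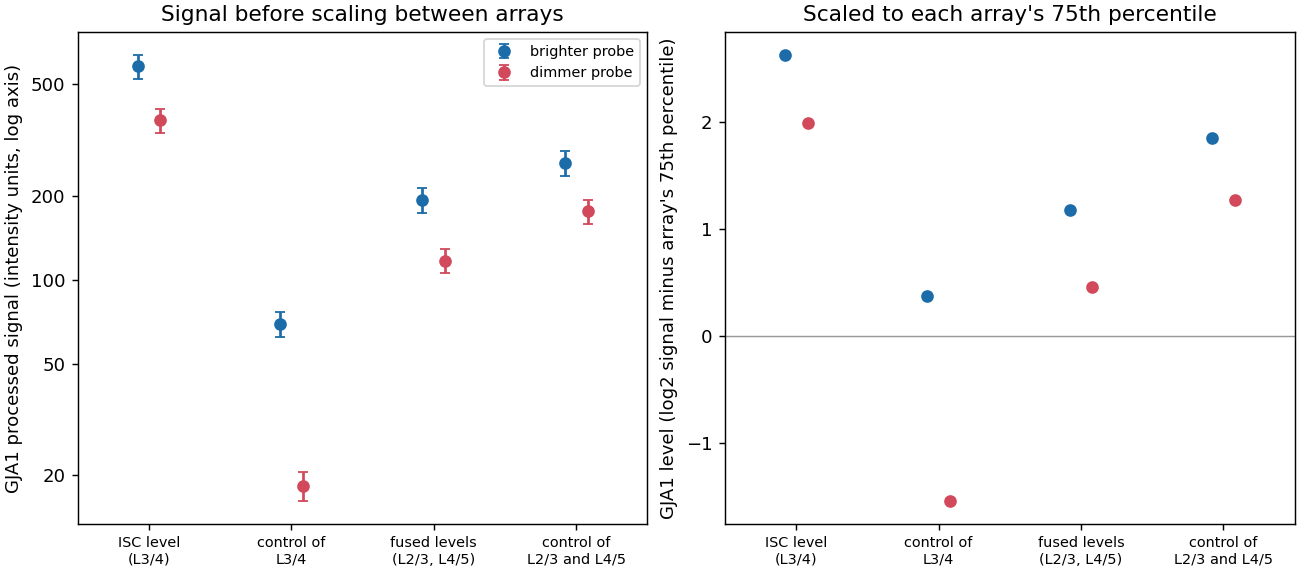
GJA1 signal of the 2 probes on the 4 arrays, 1 spot per probe and array, as processed signal on a log axis with the software's error per spot (left) and as log2 signal minus each array's 75th percentile (right). Both probes were highest at the ISC level (581 and 373 before scaling) and lowest in the L3/4 control (69.4 and 18.3), where they also lie farthest apart.

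Set against the control of the same level, GJA1 at the ISC level was higher by 2.25 ± 0.21 on the log2 scale by the brighter probe (4.77-fold) and by 3.54 ± 0.23 by the dimmer one (11.6-fold), where ± is the software's error for 2 spots. By the brighter probe GJA1 was at place 99 from the top among 13731 features measured on both arrays, and at place 7 among the 966 with a gene name. Features at least 2-fold higher made up 9.08% of all measured in this comparison. This is the contrast by which the gene was picked.

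Against the L2/3 and L4/5 control, the ISC level was higher by 0.78 by the brighter probe and by 0.72 by the dimmer one, both under 2-fold (1.72-fold and 1.65-fold). In that comparison 3.54% of features were at least 2-fold higher. The stressed ligament thus stood well above one control array and much less above the other, and both values rest on the same ISC array. The control arrays themselves were apart: the L3/4 control was below the L2/3 and L4/5 control, at -1.47 for the brighter probe and -2.82 for the dimmer probe, beside 9.19% of features at least 2-fold lower. Of 1221 features that were higher by at least 2-fold at the ISC level than in the L3/4 control and measured on all arrays, 684 (56.0%) were likewise at least 2-fold lower in the L3/4 control than in the other control. Both differences use the L3/4 control array, so a low reading there raises this share, which cannot be set against the 9.19%. By at least 2-fold, 155 of the 1221 (12.7%) were higher at the ISC level than in the L2/3 and L4/5 control, and GJA1 was not among them. That count shares the ISC array with the selection.

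At the fused levels GJA1 was below their own control, at -0.67 ± 0.20 by the brighter probe and -0.82 ± 0.21 by the dimmer one, which is under 2-fold (0.63 and 0.57 of the control signal). Features at least 2-fold lower were 9.15% in this comparison. Against the L3/4 control the fused levels were higher, by 0.80 by the brighter probe and by 2.0 by the dimmer one, so that the direction at the fused levels turned with the control used. Set directly against the fused levels, the ISC level was higher by 1.45 and 1.54 by the 2 probes (2.74-fold and 2.90-fold), beside 6.99% of features at least 2-fold higher, and this difference involves no control array.

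**Figure D2:**
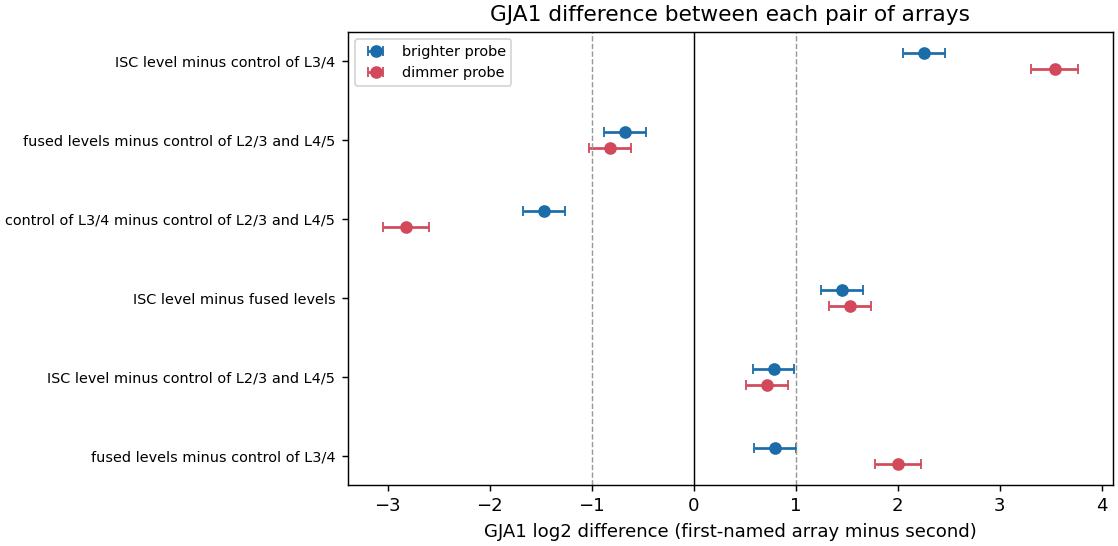
GJA1 log2 difference, first-named array minus second, for 6 pairs of arrays; points are the 2 probes, bars the software's error for 2 spots, and dashed lines mark 2-fold. The probes lie close together in the comparisons without the L3/4 control and more than 1 log2 unit apart in those with it.

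The 2 probes agreed closely wherever the L3/4 control was not involved. Their differences were then 0.15 apart for the fused levels against their control, 0.08 apart for the ISC level against the fused levels and 0.06 apart for the ISC level against the L2/3 and L4/5 control. In the comparisons with the L3/4 control they were 1.28 apart for the ISC level, 1.35 for the controls and 1.20 for the fused levels. Among 138 RefSeq transcripts with 2 measured probes, the median distance between probes for the ISC level against the L3/4 control was 0.24 and the 90th percentile 0.92, and 7 of them, GJA1 included, were at least as far apart as GJA1 (5.07%). On the array of the L3/4 control the dimmer probe's spot had a median brightness of 50, against 28 for its local background, a ratio of 1.79. On the other arrays that ratio lay between 5.11 and 14.9 for the dimmer probe, and over all arrays between 3.80 and 22.3 for the brighter one. The size of the difference from the L3/4 control is accordingly given by both probes throughout, and the direction is the same by both.

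Only 3 other members of the connexin and pannexin family could be named among the 23 looked for, and all 3 were well above background on every array. GJC1 encodes connexin 45, which forms channels in smooth muscle, the conduction system of the heart and osteoblasts, GJA5 encodes connexin 40 of arterial endothelium and atrial muscle, and GJB1 encodes connexin 32 of liver and of the myelin of Schwann cells. The GJC1 level was 1.08 at the ISC level and -0.24 in the L3/4 control, and 0.65 at the fused levels and 0.52 in the L2/3 and L4/5 control. GJC1 was thus higher by at least 2-fold at the ISC level than in the L3/4 control, by 1.32 with 5 probes from 1.08 to 1.54. Like GJA1 it was highest at the ISC level and lowest in the L3/4 control, and under 2-fold (0.56) above the L2/3 and L4/5 control. Unlike GJA1, it was little different at the fused levels from their control, at 0.13 with probes from -0.02 to 0.24. This difference between the genes was not tested.

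GJA5, with 1 probe, had a level of -1.14 at the ISC level and -0.80 in the L3/4 control, and of -1.13 at the fused levels and -0.72 in the L2/3 and L4/5 control. The GJB1 level was -0.23 at the ISC level and 0.56 in the L3/4 control, and -0.32 at the fused levels and 0.23 in the L2/3 and L4/5 control. GJA5 and GJB1 were lower at both model levels than in their own controls, all under 2-fold: GJA5 at -0.34 and -0.41, and GJB1 at -0.78 and -0.55, for the ISC and the fused levels in that order. The 5 probes of GJB1 ranged from -1.19 to -0.78 at the ISC level, so some of its other probes passed 2-fold. The 4 connexin genes therefore did not share a direction at the ISC level.

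**Figure D3:**
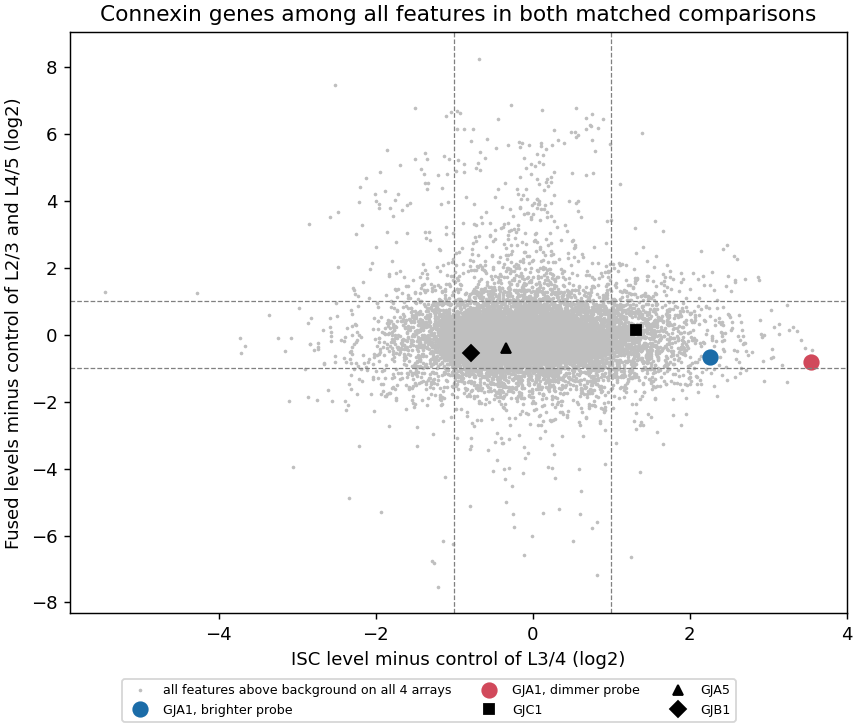
Log2 difference of the ISC level from the L3/4 control (horizontal) and of the fused levels from the L2/3 and L4/5 control (vertical), 1 point per feature well above background on all 4 arrays (12742); dashed lines mark 2-fold. GJA1 lies to the right and just below the middle by both probes (2.25 and -0.67, 3.54 and -0.82), with GJC1 to the right at 1.32 and GJA5 and GJB1 left of the middle.

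Genes that work with connexin 43 were taken from 5 lists: the family itself, its binding partners and trafficking proteins, the kinases and phosphatases that act on its tail, signals known to act on the gene or its channels, and calcium and purine signalling. Without GJA1 the lists held 187 symbols, of which 53 could be named and 44 were measured at the ISC level and in the L3/4 control. Of these 44, 6 were higher by at least 2-fold and 6 at least 2-fold lower (13.6% each), beside 9.08% and 10.5% of all features, with a median difference of -0.20 beside -0.17 for all features. For the fused levels 2 of 42 were higher by at least 2-fold and 5 at least 2-fold lower (4.76% and 11.9%), beside 7.82% and 9.15% of all features, with a median of -0.31 beside -0.14. Pathway genes were thus found on both sides of GJA1's direction in each comparison.

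Taken in either direction, 12 of 44 pathway genes were at least 2-fold apart for the ISC level against the L3/4 control, beside 19.6% of all features, and 7 of 42 for the fused levels against their control, beside 17.0%. Between the L3/4 control and the L2/3 and L4/5 control, 5 of 42 were higher and 6 lower by this size, beside 8.38% and 9.19% of features, or 17.6% in either direction. Directly between the ISC level and the fused levels, 6 of 43 were higher and 4 lower, beside 6.99% and 7.77%, or 14.8% in either direction. The ISC level was higher than the L2/3 and L4/5 control for 1 of 43 and lower for 3, beside 3.54% and 5.03%, or 8.57% in either direction. The fused levels were higher than the L3/4 control for 3 of 43 and lower for 6, beside 11.2% and 13.0%, or 24.2% in either direction. The ISC array and the L2/3 and L4/5 control were thus the closest pair by these counts, for pathway genes and for all features. GJA1 was under 2-fold apart between them, by 0.78 for the brighter probe and 0.72 for the dimmer one. It was also under 2-fold apart between the fused levels and their control, by 0.67 and 0.82, so its closest pair differed by probe.

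Among binding partners and trafficking genes, 7 of 8 named were measured, and at the ISC level 0 of 7 were at least 2-fold apart from the L3/4 control, beside 19.6% of all features. CAV2, the caveolin partner of CAV1 in lipid rafts, was at 0.78, DBN1, drebrin, an actin-binding protein that holds connexin 43 at the membrane, at 0.62, and DES, desmin, at 0.28. CTNNA1, the catenin that links cadherins to actin, was at -0.99, AKAP9, a scaffold for protein kinase A, at -0.40, and CAV1, caveolin 1, at -0.29 with 7 probes from -0.71 to 0.59. At the fused levels 1 of 7 was at least 2-fold lower, DES at -4.29, beside 9.15% of all features. DES is a muscle filament gene, and of 15 measured skeletal muscle genes 15 were likewise lower by at least 2-fold than in the L2/3 and L4/5 control. CTNNA1 was at -0.87 there, AKAP9 at -0.50 and YWHAQ, a 14-3-3 protein, at 0.15.

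Among kinases and phosphatases, CAMK2D, a calcium and calmodulin dependent kinase, was higher by at least 2-fold at the ISC level. Its level was 0.10 there and -2.02 in the L3/4 control, and -0.17 at the fused levels and 0.56 in the L2/3 and L4/5 control. The difference of the ISC level from the L3/4 control was 2.12, with all 3 probes between 2.06 and 2.79, and it was -0.46 from the other control. PRKCB, a protein kinase C, had a level of -2.19 at the ISC level and 0.39 in the L3/4 control, and of 0.84 at the fused levels and -2.68 in the L2/3 and L4/5 control. It was therefore at -2.58 for the ISC level and at 3.52 for the fused levels, and 1 of its 6 probes was measured in these comparisons. The other measured members were under 2-fold apart in both comparisons by their brightest probes. Not every further probe was: the dimmer of 2 CSNK1A1 probes was at -3.23 for the ISC level. For the ISC level PPP2CA, the catalytic subunit of phosphatase 2A, was the next highest at 0.47 (6 probes from -0.86 to 0.47). For the fused levels PRKCE was the next highest at 0.71 (3 probes from -0.38 to 1.19) and CAMK2D the lowest at -0.73.

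Of 21 named upstream signals, 17 were measured for the ISC level, 3 higher by at least 2-fold and 3 at least 2-fold lower, beside 9.08% and 10.5% of all features. The higher ones were PTGS2, cyclooxygenase-2, at 1.31 (with a second measured probe at -0.38), TGFB2 at 1.27 (3 probes from 1.27 to 1.48) and FGF2 at 1.15 (2 probes at 1.15 and 1.33). The lower ones were FGF7 at -2.37 (6 probes from -2.93 to -1.88), the prostaglandin E2 receptor gene PTGER4 at -1.98 (3 measured probes from -2.81 to -0.85) and BMP4 at -1.31 (5 probes from -1.39 to -1.30). HIF1A, the hypoxia-inducible factor, was at 0.93 with 3 probes from 0.93 to 1.08. JUN, a subunit of the AP-1 factor that acts on the GJA1 promoter, had a level of 2.13 at the ISC level and 1.31 in the L3/4 control, and of 0.64 at the fused levels and 1.66 in the L2/3 and L4/5 control, a difference of 0.82 and of -1.01. HIF1A was at -0.85 and TGFB2 at -0.96 for the fused levels. JUN, HIF1A and TGFB2, like GJA1, were thus above their control at the ISC level and below it at the fused levels. So were 646 of the 1221 features (52.9%) higher by at least 2-fold at the ISC level and measured on all arrays. JUN and HIF1A, under 2-fold at the ISC level by the probe used, are not in that set. No share was taken for features above the L3/4 control by less. Over all features the median for the fused levels against their control was -0.14, so a value below that control was common. For the fused levels 1 of 17 upstream signals was at least 2-fold higher, PTGS2 at 2.44 with its second measured probe at 0.14, and 3 were at least 2-fold lower, PTH1R, the parathyroid hormone receptor, at -2.28, FGF1 at -1.17 and JUN, beside 7.82% and 9.15% of all features. FGF1 was well above background at the ISC level and not in the L3/4 control. Its signal read 3.77-fold higher at the ISC level, which is no lower limit, since the control reading is uncertain. IL1B, the inflammatory cytokine interleukin-1 beta, did not reach that brightness in the L2/3 and L4/5 control but did at the fused levels. Its signal there was 21.8-fold the lowest signal well above background in that control, which is no strict lower limit either.

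Among calcium and purine signalling genes, 1 of 8 measured was higher by at least 2-fold at the ISC level and 2 at least 2-fold lower, beside 9.08% and 10.5% of all features. KCNMA1, the pore of the large-conductance calcium-activated potassium channel, had a level of 3.37 at the ISC level and 1.86 in the L3/4 control, and of 2.23 at the fused levels and 3.19 in the L2/3 and L4/5 control. Its difference was 1.51 for the ISC level (2 probes at 1.45 and 1.51) and -0.96 for the fused levels. PRKG1, the kinase driven by cyclic GMP in smooth muscle, was at -2.28 for the ISC level, with 2 probes at -2.28 and -2.09, and TRPC1, a cation channel of the plasma membrane, at -1.15, with 4 probes from -1.15 to 0.28. For the fused levels 1 of 7 was at least 2-fold lower, ATP2A1, the calcium pump of fast skeletal muscle, at -5.11, beside 9.15% of all features. ADORA2B, an adenosine receptor, was by its brighter probe well above background in the L3/4 control and not at the ISC level. That probe's signal in the L3/4 control was 4.81-fold the lowest signal well above background at the ISC level, which is no strict lower limit. The other ADORA2B probe was well above background at the ISC level and not in the L3/4 control, so the probes did not share a direction of detection.

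**Figure D4:**
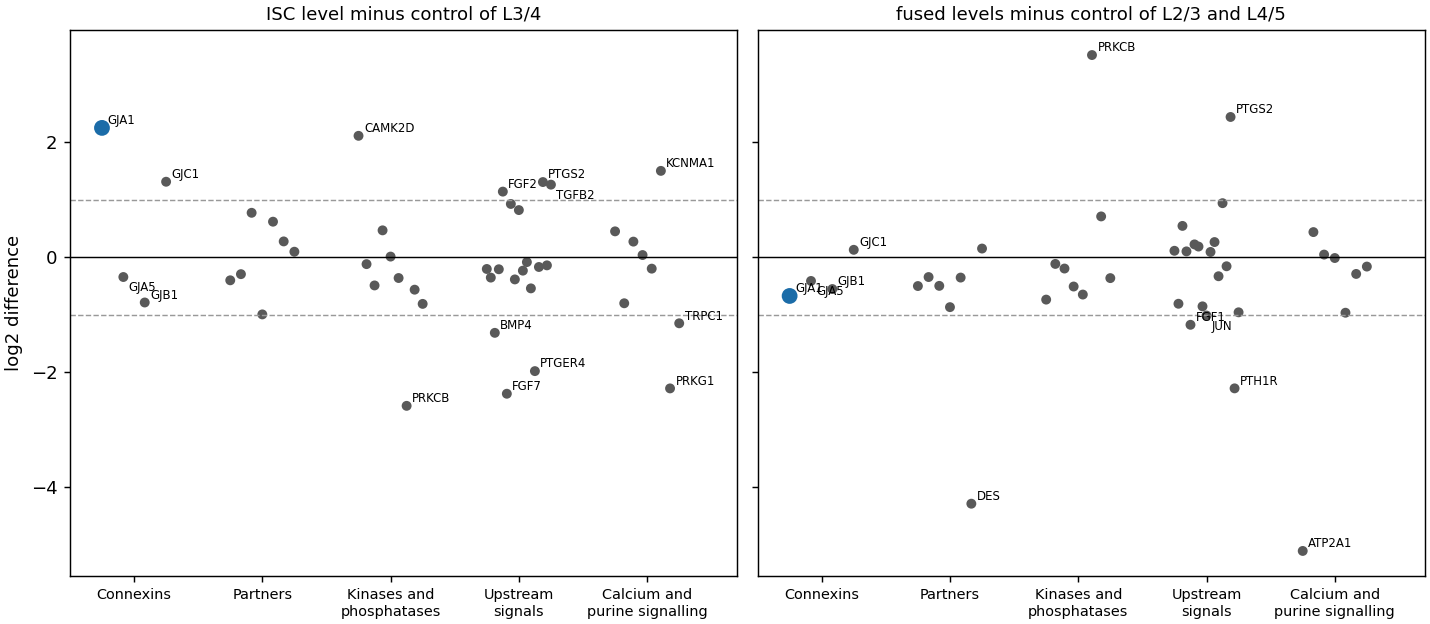
Log2 difference of each measured member of the 5 lists for the ISC level minus its control (left) and the fused levels minus their control (right), 1 point per gene, GJA1 as the large blue point, dashed lines at 2-fold. Genes at least 2-fold apart and all connexins are named; at the ISC level 6 genes other than GJA1 lie above and 6 below the dashed lines.

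Fewer cells of a type and less RNA per cell cannot be told apart in tissue RNA, and GJA1 is made by several cell types, so the marker lists are given as their mean log2 level over the members well above background on all arrays. The 6 ligament fibroblast genes averaged 4.67 at the ISC level and 4.55 in the L3/4 control, and 4.08 at the fused levels and 4.89 in the L2/3 and L4/5 control. Its members went both ways for the ISC level against the L3/4 control. BGN was at 1.27 (2 probes at 0.47 and 1.27), COL1A2 at 0.89 (11 probes from 0.73 to 1.49) and CNMD at -0.09. DCN was at -0.23 (6 probes from -1.40 to -0.23) and LUM at -0.57 (4 probes from -1.02 to -0.57). OGN was at -0.60 (5 probes from -1.01 to -0.60). Some other probes of COL1A2, DCN, LUM and OGN thus passed 2-fold. For the fused levels against their control BGN, COL1A2, CNMD, DCN, LUM and OGN were, in that order, at -2.07, -0.62, -1.01, 0.07, -1.36 and 0.18. The probes of OGN ranged from 0.18 to 1.45 there and those of DCN from -0.18 to 0.91. COL1A2, DCN, LUM and OGN were well above background on all 4 arrays, while TNMD, a tendon and ligament marker, was not at the fused levels. The 6 smooth muscle and myofibroblast genes averaged 1.36 at the ISC level and 2.29 in the L3/4 control, and 1.74 at the fused levels and 2.93 in the L2/3 and L4/5 control. In that list 0 of 6 were higher by at least 2-fold and 3 of 6 lower by at least 2-fold at the ISC level, beside 9.08% and 10.5% of all features. At the fused levels DES was at -4.29 and TPM1 at -2.73, both also genes of skeletal muscle, while ACTA2 was at 0.23, CALD1 at 0.55 and MYH11 at -0.07. The 4 endothelial genes averaged -1.69 at the ISC level and -0.88 in the L3/4 control, and -0.68 at the fused levels and -1.43 in the L2/3 and L4/5 control. Of these endothelial genes, SOX17 was at -2.57 for the ISC level against the L3/4 control and SELE at -0.72. NOS3 was at -0.08 and VCAM1 at 0.11, with 5 probes from -1.01 to 0.13. In the smooth muscle list DES alone was higher in that comparison, at 0.28. Which of these cells hold the GJA1 signal was not tested. The 2 Schwann cell genes averaged -0.65 at the ISC level and 0.47 in the L3/4 control, and -0.10 at the fused levels and -1.50 in the L2/3 and L4/5 control.

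Genes of other tissues were read on every array, at differing levels. The 11 skeletal muscle genes averaged -0.40 at the ISC level and 0.06 in the L3/4 control, and -1.07 at the fused levels and 4.36 in the L2/3 and L4/5 control. The 9 neutrophil genes averaged -0.30 at the ISC level and 0.18 in the L3/4 control, and 2.78 at the fused levels and -0.47 in the L2/3 and L4/5 control. The 5 adipocyte genes averaged -0.50 at the ISC level and -0.59 in the L3/4 control, and 1.07 at the fused levels and -0.48 in the L2/3 and L4/5 control. The 2 haemoglobin genes averaged 7.76 at the ISC level and 8.61 in the L3/4 control, and 9.17 at the fused levels and 7.09 in the L2/3 and L4/5 control. The muscle list was highest in the L2/3 and L4/5 control and the neutrophil, adipocyte and haemoglobin lists at the fused levels. The part of these cells in the GJA1 values was not tested.

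Connexin 43 is abundant in bone cells, and of 8 named genes of bone and calcification 6 were measured. For the ISC level 2 of 6 were at least 2-fold higher, the osteoclast protease gene CTSK at 1.27 and ENPP1, which makes the mineralisation inhibitor pyrophosphate, at 1.17, and 0 of 6 at least 2-fold lower, beside 9.08% and 10.5% of all features. MGP, an inhibitor of calcification, was at 0.66, and SPP1, osteopontin, at -0.31. For the fused levels 0 of 6 were higher by at least 2-fold and 2 at least 2-fold lower, PTH1R and MGP at -1.33, beside 7.82% and 9.15% of all features. Against the L2/3 and L4/5 control, CTSK at the ISC level was at 0.37 and ENPP1 at 0.48, under 2-fold, as was GJA1.

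The named genes with the most similar pattern were found by the root mean square distance of log2 levels over the 4 arrays, each gene centred on its own mean, among 885 named genes well above background on all arrays. Centred in this way, GJA1 was at 1.12 at the ISC level and -1.13 in the L3/4 control, and at -0.33 at the fused levels and 0.34 in the L2/3 and L4/5 control. The 10 nearest genes had distances between 0.22 and 0.35, beside a median of 0.95 over all 885. They were PNPLA8, a phospholipase, SLC6A8, the creatine transporter, SPRTN, a DNA repair protease, CCL2, the monocyte chemoattractant, MFAP1, a splicing protein, KCNMA1, CSNK2A1, the catalytic subunit of casein kinase 2, TVP23C, ACO1, the cytosolic aconitase, and HHIP, an inhibitor of Hedgehog signalling. SLC6A8, with a distance of 0.22, was higher by 2.09 at the ISC level than in the L3/4 control, by 0.30 against the other control, and was at -1.25 for the fused levels. CCL2 was higher by 1.54 at the ISC level than in the L3/4 control, and at -1.0 for the fused levels, and its 4 probes, 2 of them not well above background on every array, gave 1.54 to 2.50 and -1.59 to -1.0. The 5 probes of TVP23C gave 1.46 to 1.66 at the ISC level and -1.22 to -1.09 at the fused levels.

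PNPLA8 was the nearest by its brightest probe, at 2.05 for the ISC level, but its 4 other probes lay between -0.85 and 0.06 there. The 2 GJA1 probes were themselves at a distance of 0.56, and 64 named genes were nearer to the brighter GJA1 probe than the dimmer one was. With the dimmer probe as the pattern, 3 of the 10 genes came out again, CSNK2A1, PNPLA8 and SLC6A8. Likeness over 4 arrays is a weak measure for this reason. Among the genes nearest to the GJA1 pattern with its sign turned were SLC4A4, a sodium bicarbonate cotransporter, PTGER4, the smooth muscle myosin gene MYH11 and the endothelial factor gene SOX17. SLC4A4, at a distance of 0.17, was at -2.08 for the ISC level and 1.10 for the fused levels, with 5 probes from -2.28 to -0.58 at the ISC level and from -0.77 to 1.10 at the fused levels.

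**Figure D5:**
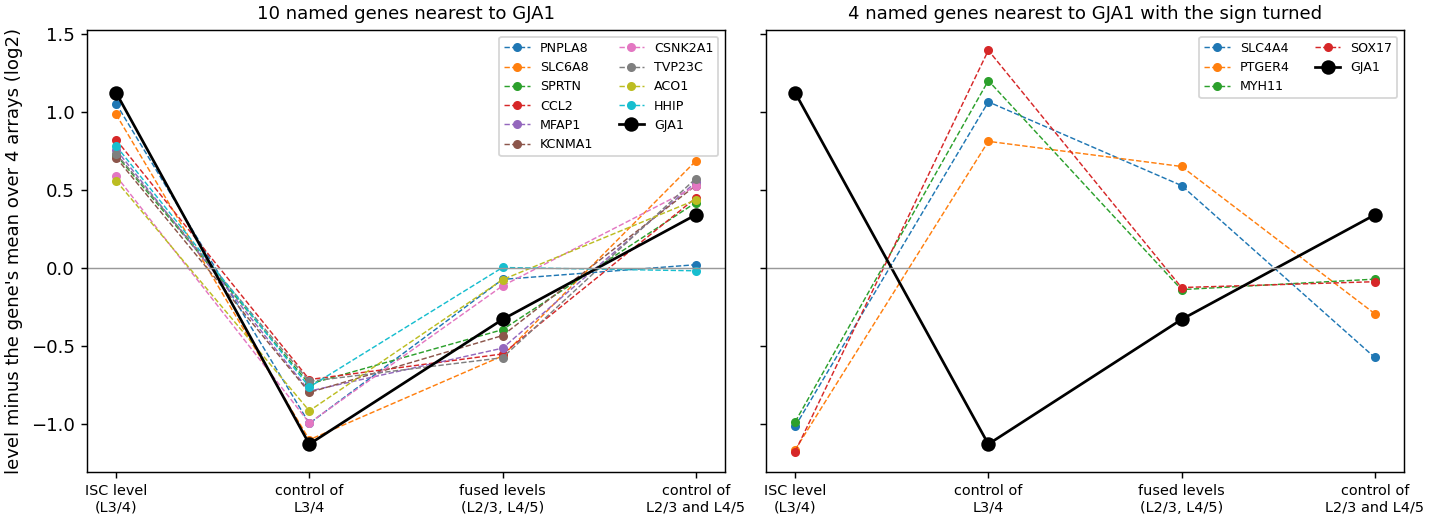
Log2 level minus the gene's own mean over the 4 arrays, for GJA1 (black, brighter probe) with the 10 named genes nearest to it (left) and with the 4 nearest to its pattern with the sign turned (right); lines only join the points of a gene. The 10 genes share the high ISC level and the low L3/4 control.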

How the data were processed

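Total RNA was labelled with Cy3, and per the submitters' processing notes the images went through Agilent Feature Extraction 12.0.3. The deposited processed signal is a spot intensity on a linear scale, background-subtracted and detrended within each array, per the file headers. The files also hold marks of 0 or 1 for each spot (well above background, saturated, outlier), per the file headers. The arrays share 1 slide. The authors' deposited value table holds the same intensity times 1 constant per array (medians between 442 and 516), and how the constants were set is not given in the sources used here.

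Control spots and outlier spots (3 to 7 per array) were left out, spots of a probe averaged, log2 taken, and the 75th percentile of an array's probes subtracted (signals between 53.4, in the L3/4 control, and 93.7, at the ISC level). Between 59.6% and 67.9% of probes were well above background. A gene is its brightest probe over all arrays, and is measured when well above background on both arrays compared. For a gene well above background on 1 array of a pair, a fold is given in places. This fold divides the bright array's signal by the dim array's, or by the lowest signal well above background there if that is higher. Some signals above that lowest one were not marked well above background, so the fold is no strict lower limit. RefSeq accessions were named with RefSeq gene records of mOryCun1.1, which named 3792 of 43603 probes (8.70%). The array design refers to another build, so no coordinates are given, and probes with Ensembl or other identifiers are unnamed here, whether or not they measure GJA1. With 1 array per group no test was possible, and 2-fold is a fixed size. Counting and likeness were run on simulated data with planted differences, as a check of the calculation only. The planted like gene had the very pattern set for GJA1, so its first place says nothing of the likeness ranking here. Genes named are GJA1, measured connexins, up to 3 highest and 3 lowest of each list in both matched comparisons (some left out for length), and the 10 like and 5 opposite genes, of which some are not reported here. Members and lists were chosen with earlier results of these data known. Alternatives used limma 3.58.1 in R 4.3.3 (quantile, cyclic loess, normexp with offset 50), other scalings, probes, filters and folds. Normexp ran on median spot signals, as the files used here hold no mean ones.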

Additional observations from a re-analysis of the deposited data

Results flagged for a closer look

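GJA1 differed in opposite directions in the 2 comparisons with a matched control. By the brighter probe it was at 2.25 for the ISC level and at -0.67 for the fused levels, and by the dimmer probe at 3.54 and at -0.82, on the log2 scale. Of the 1221 features higher by at least 2-fold at the ISC level and measured on all arrays, 646 (52.9%) were likewise below their control at the fused levels. The median difference of all features at the fused levels was -0.14, so a value below that control was common. PRKCB, a protein kinase C gene, went the other way from GJA1 by at least 2-fold in each, at -2.58 for the ISC level and 3.52 for the fused levels, on the 1 of its 6 probes that was measured. These differences between the comparisons were not tested, since each rests on 1 array per group.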

How the results depend on the processing

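All 6 GJA1 differences kept their sign under all 9 alternatives. The ISC level ranged from 1.86 to 3.54 against the L3/4 control, from 1.24 to 1.54 against the fused levels and from 0.72 to 0.83 against the L2/3 and L4/5 control. The fused levels ranged from -0.82 to -0.52 against their control, and the controls from -2.82 to -1.14. The fused levels against the L3/4 control ranged from 0.63 to 2.0 and passed 2-fold under 3 of the 9, all of which take in the dimmer probe. With no replicates, a change is listed where it exceeds the SD over the 2 probes. Exchanging the probes exceeds it by construction, and small changes are listed where the probes lie close together, so the list does not rank the settings. The dimmer probe gave 3.54, -0.82, -2.82, 1.54, 0.72 and 2.0 for the ISC level against the L3/4 control, the fused levels against their control, the controls, the ISC level against the fused levels and against the other control, and the fused levels against the L3/4 control. Normexp gave -0.52 for the fused levels against their control, 1.24 for the ISC level against the fused levels and 0.72 against the L2/3 and L4/5 control, cyclic loess gave 1.38 for the ISC level against the fused levels, and local background subtraction, chosen after seeing the data, gave 0.72 for the ISC level against the L2/3 and L4/5 control. The cause of these changes was not tested.

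The number of pathway genes at least 2-fold apart, in the same order of comparisons, was 12, 7, 11, 10, 4 and 9. It was 4, 3, 6, 6, 2 and 2 with normexp, whose offset of 50 draws dim signals together, and 20, 16, 17, 16, 11 and 19 at 1.5-fold. At 3-fold it was 5, 7, 4 and 5 for the ISC level against the L3/4 control, the controls, the ISC level against the fused levels, and the fused levels against the L3/4 control. Over all features, 2687 were 2-fold apart for the ISC level against the L3/4 control and 523 with normexp, 2328 and 704 for the fused levels against their control, 2308 and 421 for the controls, 2149 and 702 for the ISC level against the fused levels, 1209 and 176 for the ISC level against the other control, and 3228 and 858 for the fused levels against the L3/4 control. Higher ones made up 46.4%, 46.1%, 47.7%, 47.4%, 41.3% and 46.4% in the first order, and 66.3%, 62.8%, 34.4%, 36.2%, 26.7% and 65.4% with normexp. For the ISC level against the L3/4 control they were 58.9% on the authors' scale, on which the median feature shifts by 0.12. Of the 10 genes most like GJA1, 4 came out again with normexp, 3 by Pearson's r over the 4 arrays, and 7 to 10 under the other scalings.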

Other observations

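The disagreement between probes of 1 transcript that GJA1 showed in the L3/4 control was also seen, in the other direction, in CSNK1A1, a casein kinase 1 gene from the list of connexin 43 kinases, named here after its values were seen. Its 2 probes were at -0.12 and -3.23 for the ISC level against the L3/4 control and at 0.31 and 3.53 for the L3/4 control against the other control, but at -0.11 and 0.04 for the fused levels against their control. Over all RefSeq transcripts with 2 measured probes, the 90th percentile of the distance between probes was 0.92, 0.90 and 0.96 in the comparisons with the L3/4 control (the ISC level, the controls and the fused levels). It was 0.66, 0.68 and 0.79 in those without it (the fused levels against their control, the ISC level against the fused levels and against the L2/3 and L4/5 control).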
